A study of Arabidopsis thaliana with 12 samples.

Results

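A set of Arabidopsis transcripts accumulated in seedlings kept on the synthetic auxin 1-naphthaleneacetic acid (NAA) and was low again after 3 h of antimycin A. It holds 115 of the 22746 probe sets measured, a probe set being the group of short probes that reads a transcript on the array. Members were chosen from group means of log2(intensity + 16). Their mean on NAA lay at least 1 above that on B5, and their mean on NAA with antimycin A lay at least 1 below that on NAA. The NAA effect among seedlings given antimycin A had to stay below 1.8, and the antimycin A effect on plain B5 above -1. Of 120 probe sets that met these conditions, 5 were left out by gene (EXPB2, scpl20, scpl28, scpl48 and AT2G37870), as genes of groups set aside when the set was defined. Because every group mean entered the choice, the levels of the members are a description and carry no test.

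The seedlings carried the label Col:LUC and the ecotype Col-0. All were raised for 10 days on B5, a standard plant culture medium, and moved to fresh plates for 3 days. The 4 groups of 3 arrays each were plain B5, B5 followed by 50 µM antimycin A for 3 h, 4.5 µM NAA, and NAA followed by the same antimycin A treatment. The labels call the RNA isolations biological triplicates, with 400 ng of total RNA per sample. Their growth protocol also names seed of Attim17-1, which is in no group label, and they do not say if a solvent was given to the seedlings without antimycin A.

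Auxin acts through receptors that tag Aux/IAA repressor proteins for breakdown, which frees auxin response factors to switch on their targets. Prolonged auxin in seedlings is known for promoting lateral and adventitious roots and root hairs, all of which require the cell wall to be loosened and rebuilt. Antimycin A blocks complex III of the mitochondrial electron transport chain and sets off retrograde signalling, in which mitochondria alter nuclear transcription.

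Array medians of the deposited intensities ran from 33.7 to 36.2 on B5 and from 38.8 to 39.7 on NAA, and arrays of a group correlated at 0.991 or above. The number of arrays limits the precision. NDB2, an alternative NAD(P)H dehydrogenase of the mitochondrial retrograde response, averaged 113 on B5 and 557 after antimycin A, and 163 on NAA and 692 after antimycin A. It was thus higher on both media with the inhibitor, by 2.12 ± 0.20 on B5 (adjusted p = 5.08e-05) and 2.01 ± 0.20 on NAA (adjusted p = 0.000105, both limma with Benjamini-Hochberg adjustment). The 25S ribosomal RNA control read 5385 ± 347 (SD) on B5 and 8244 ± 175 there with antimycin A, against 6081 ± 477 on NAA and 12030 ± 317 there with antimycin A. Its part in the levels of the members was not tested.

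Over the members, the median intensity on the 3 arrays was 20.7, 17.6 and 18.9 on B5 and 12.3, 12.8 and 11.4 there with antimycin A. The NAA medians were 109, 120.1 and 95.9, dropping to 22.2, 22.9 and 23.5 with antimycin A. The NAA arrays without antimycin A therefore stood alone, and the other 3 groups were close to each other. For 113 of the 115 members every NAA array was above all 9 other arrays (5.99% of all probe sets), an outcome that the rule largely fixes, the exceptions being AT3G02480 and the unnamed probe set 258037_at. Group means of the members ran from 3.45 to 1006 on B5, from 27.7 to 4958 on NAA, and from 4.55 to 1117 when antimycin A followed NAA. On B5 48 members had a mean below 16, the constant added before the logarithm, and on NAA none did. Changes of members that dim are understated on the log2(intensity + 16) scale.

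**Figure D1:**
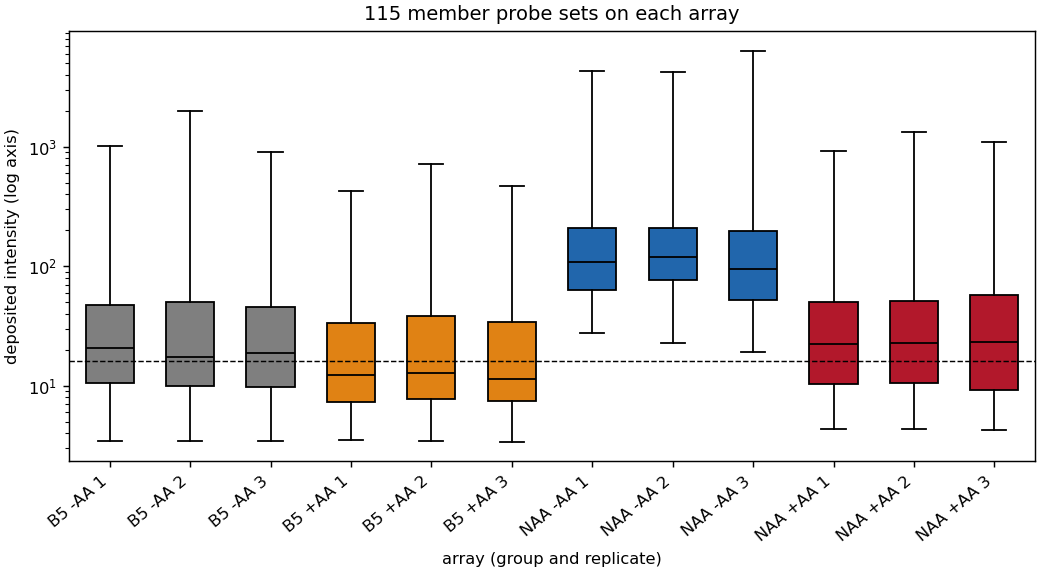
Deposited intensity (log axis) of the 115 members on each of the 12 arrays. Boxes span the quartiles with the median as a line, whiskers reach the lowest and highest member, and the dashed line marks an intensity of 16. The medians of 95.9 to 120.1 on the NAA arrays stand above those of 11.4 to 23.5 on the other 9.

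The members rose with NAA by 1.01 to 3.83 on the log2 scale, with a median of 1.53 against -0.01 over all probe sets. They fell with antimycin A on NAA by 1.00 to 4.06, and their median change was -1.45 against 0.01 over all probe sets. The fit called 112 of 115 members higher with NAA at an adjusted p below 0.05, where 10.7% of all probe sets were called higher. It called 112 lower with antimycin A on NAA, where 13.2% of all were called lower. The arrays of the groups compared did not overlap for any of the 115, against 18.2% of all probe sets without overlap and higher with NAA and 18.9% without overlap and lower with antimycin A on NAA. The rule fixed both directions, and nothing is read from these counts. The same arrays, NAA without antimycin A, enter both changes, so a high reading there enlarges the rise and the fall together.

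With antimycin A, members kept between 1.5% and 44.5% of their mean intensity on NAA, with a median of 22.5%. The mean then lay below that on untreated B5 for 59 of the 115. Against B5 with antimycin A, 52 members were within 0.25 of it on the log2 scale, 43 stood 0.25 to 1 above it, 13 stood 1 or more above it and 7 lay 0.25 or more below it. The arrays of NAA with antimycin A were all above those of B5 with antimycin A for 62 members (18% of all probe sets), all below for 5 (22.7% of all), and overlapped for 48. The fit called 34 members still higher on NAA when both groups had antimycin A, where 12.2% of all probe sets were called, and 1 lower, where 9.74% were.

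**Figure D2:**
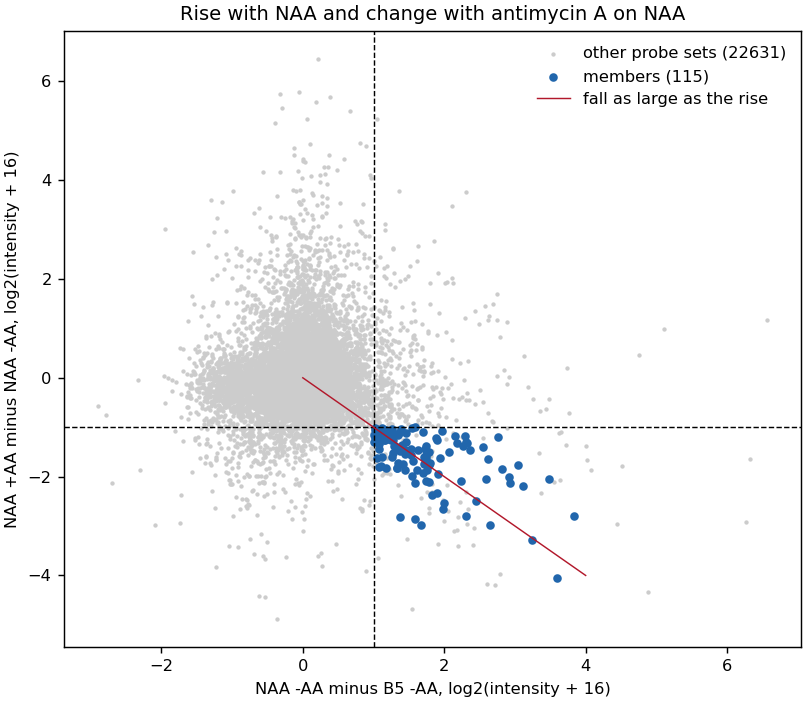
Change with NAA (horizontal) against change with antimycin A on NAA (vertical), both as differences of log2(intensity + 16), for the 115 members and the other 22631 probe sets. Dashed lines are the limits of 1 and -1, and the line marks a fall as large as the rise, which 59 members exceeded. The NAA arrays without antimycin A enter both axes.

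In all, 548 probe sets rose by 1 or more with NAA, and 190 of them fell by 1 or more with antimycin A. The members are 21.0% of the former and 15.8% of the 729 probe sets that fell by 1 or more with antimycin A on NAA. Among probe sets of 1 gene, AT4G28650 was just inside the limit on the rise, at 1.007, and just outside it AT2G47540 at 0.997. For the fall these genes were AT2G28200 at -1.018 and AT3G57950 at -0.997, and for the remaining NAA effect AT3G24240 at 1.52 and AT1G30760 at 1.87. On B5 with antimycin A, CXE18 at -0.99 was inside and AT1G67330 at -1.04 outside. The limit on the change on B5 set apart 42 probe sets that met every other condition, and the limit on the remaining NAA effect set apart 12.

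The annotation given for the array names 1 gene for 61 members, 10 of them with a current symbol and 51 by locus code, and several genes for 2. A further 52 are unnamed here and are given by probe set. Protein families given below for locus codes are background knowledge of those loci, and the families were put together after the values were seen. Values are intensities on replicates 1, 2 and 3 of each group, rises and falls are differences of log2(intensity + 16), and ± is the SE of the fit unless SD is named.

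The 4 extensin-like members belong to the hydroxyproline-rich glycoproteins that form networks in the wall, many of them typical of root hairs. AT5G06630 read 94.6, 95.2 and 102 on B5 and 34.9, 56.7 and 43.97 there with antimycin A, and 394, 495 and 267 on NAA and 73.7, 102 and 53.2 there with antimycin A. Each NAA array was above all others, and the arrays of NAA with antimycin A overlapped both B5 groups. AT5G06630 rose by 1.78 ± 0.24 with NAA and fell by 2.11 ± 0.24 with antimycin A. AT3G28550 read 91.7, 59.2 and 65.4 on B5 and 31.4, 30.2 and 28.5 there with antimycin A, and 268, 312 and 128 on NAA and 41.7, 53.9 and 52.5 there with antimycin A. On NAA with antimycin A its arrays lay below those of untreated B5 and above those of B5 with antimycin A, and it rose by 1.45 ± 0.27 with NAA and fell by 1.86 ± 0.27 with antimycin A. AT4G08410 averaged 44.9 ± 2.8 (SD) on B5, 165 ± 39.5 on NAA and 30.7 ± 16.7 there with antimycin A, and AT1G23720 averaged 223 ± 27.2, 500.2 ± 172 and 145 ± 17.3. All 4 were lower on B5 too with the inhibitor, by 0.54 to 0.92 and with no overlap of the arrays. The probe sets of AT5G06630, AT4G08410 and AT1G23720 are of the type that may also read similar transcripts, so the signal cannot be assigned to 1 gene of this family.

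sks16 encodes a protein related to SKU5, a wall glycoprotein of the copper oxidase family that guides directional root growth. It read 12.2, 15.1 and 8.7 on B5 and 7.43, 7.82 and 7.75 there with antimycin A, and 83.3, 76.7 and 52.4 on NAA and 7.28, 7.86 and 7.55 there with antimycin A. On NAA with antimycin A its arrays overlapped those of B5 with antimycin A, and sks16 rose by 1.62 ± 0.13 with NAA and fell by 1.86 ± 0.13 with antimycin A. Its relatives outside the set were taken from the annotation after the members were known. sks15 averaged 50.7 on B5 and 11.9 there with antimycin A, and 111 on NAA and 14.7 there with antimycin A, a rise of 1.01 (adjusted p = 0.0237) and a change of -2.04 (adjusted p = 0.000433), and it missed the set through its change of -1.17 on B5. SKU5 itself was bright on every array and fell with antimycin A on both media, by 0.64 on NAA (adjusted p = 0.00584) and 0.53 on B5 (adjusted p = 0.011). Its change with NAA was 0.09 (adjusted p = 0.68).

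Enzymes and inhibitors that act on pectin, the gel-forming polysaccharide of the wall, gave 5 members. AT1G62760, of the invertase and pectin methylesterase inhibitor family, read 9.78, 10.2 and 10.1 on B5 and 12.3, 12.6 and 11.2 there with antimycin A, and 89.3, 92.9 and 153 on NAA and 39.9, 35.2 and 22.01 there with antimycin A. It rose by 2.26 ± 0.19 with NAA and fell by 1.39 ± 0.19 with antimycin A and stayed above B5 on NAA with antimycin A, by 0.77 ± 0.19 against B5 with the inhibitor. AT1G02810, a pectin methylesterase, read 36.5, 37.4 and 28.5 on B5 and 17.5, 14.9 and 23.7 there with antimycin A, and 166, 183 and 125 on NAA and 39.8, 39.5 and 57.2 there with antimycin A. Its 3 arrays of NAA with antimycin A were likewise above both B5 groups, and it rose by 1.78 ± 0.16 with NAA and fell by 1.5 ± 0.16 with antimycin A. AT3G47400, of the same enzyme family, was dim outside NAA, at 28.3, 35.6 and 19.1 on NAA and between 4.31 and 4.67 on the 9 other arrays. The pectin lyase fold proteins AT3G59850 and AT2G43860, of the polygalacturonase type, averaged 52.7 ± 6.85 (SD) and 57.1 ± 21.8 on NAA and 6.47 ± 1.07 and 16.6 ± 3.74 there with antimycin A. On B5 the means were 4.96 and 9.69, and with antimycin A 5.14 and 9.96, so both were dim outside NAA.

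The CAP family gave 3 members, secreted proteins of the group that includes the pathogenesis-related PR-1 proteins. AT4G25790 read 10.4, 8.44 and 14.8 on B5 and 4.05, 4.02 and 6.42 there with antimycin A, and 170.5, 140.1 and 95.9 on NAA and 12.2, 10.3 and 8.74 there with antimycin A. It rose by 2.45 ± 0.17 with NAA and fell by 2.49 ± 0.17 with antimycin A. AT4G33730 read 12.7, 13.2 and 25 on B5 and 7.15, 7.73 and 8.43 there with antimycin A, and 116, 121 and 81.3 on NAA and 6.2, 10.5 and 7.01 there with antimycin A. It rose by 1.89 ± 0.16 with NAA and fell by 2.34 ± 0.16 with antimycin A. AT4G30320 read 18.96, 12.03 and 11.7 on B5 and 5.27, 4.85 and 8 there with antimycin A, and 87.3, 108 and 56.8 on NAA and 11.5, 7.75 and 10.4 there with antimycin A. It rose by 1.70 ± 0.18 with NAA and fell by 1.92 ± 0.18 with antimycin A. In all 3 the NAA arrays were above every other array, NAA with antimycin A was down to 7.44% to 11.8% of the NAA mean, and the arrays of B5 with antimycin A were below those of untreated B5. PR-1-LIKE, the CAP gene found outside the set by its symbol, rose by 6.27 (adjusted p = 2.27e-07) and changed by -2.91 with antimycin A on NAA (adjusted p = 5.41e-06). It averaged 369 on NAA with antimycin A against 8.16 on B5 with it, past the limit on the remaining NAA effect.

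**Figure D3:**
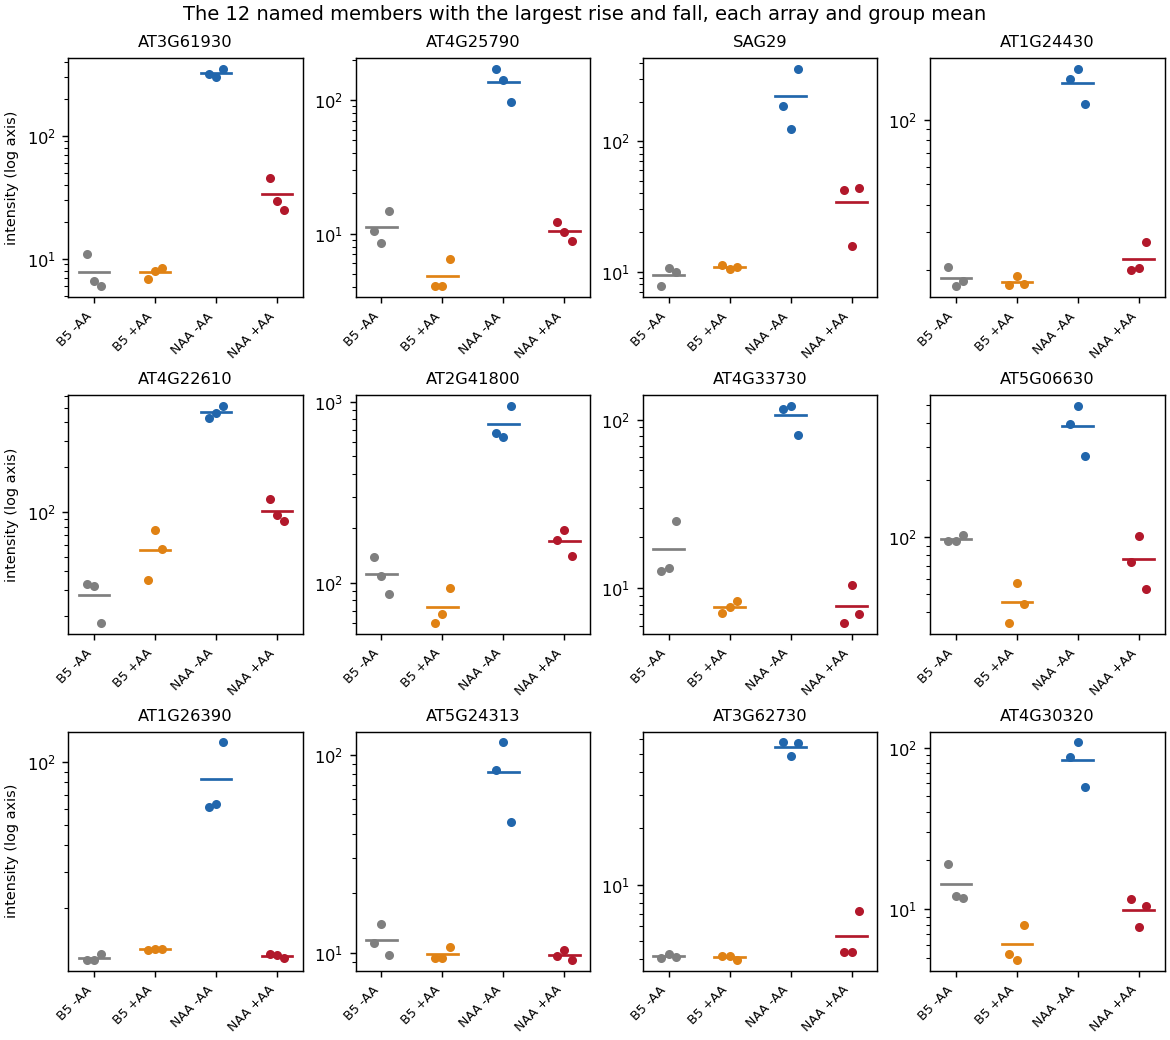
Intensity (log axis, own scale per panel) on each array and the group mean (line) for the 12 named members in which the smaller of rise and fall was largest. Each point is 1 array. In all 12 the NAA arrays without antimycin A lie above the 9 other arrays. On NAA with antimycin A, AT3G61930, AT4G22610, SAG29 and AT2G41800 stay above both B5 groups, as does AT3G62730 at dim readings.

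Proteins of the lipid transfer type, small secreted proteins with a cavity for lipids, included the brightest named members. AT3G58550 read 1023, 914 and 727 on B5 and 429, 648 and 473 there with antimycin A, and 2472, 2755 and 2785 on NAA and 722, 618 and 476 there with antimycin A. It rose by 1.58 ± 0.19 with NAA and fell by 2.13 ± 0.19 with antimycin A, and its arrays of NAA with antimycin A were below those of untreated B5. AT2G18370 read 567, 564 and 383 on B5 and 275, 375 and 280.2 there with antimycin A, and 1348, 1169 and 1194 on NAA and 524, 401 and 473 there with antimycin A. It rose by 1.29 ± 0.17 with NAA and fell by 1.38 ± 0.17 with antimycin A and ended at the level of untreated B5, with overlapping arrays. AT4G22610 read 33.1, 31.9 and 17.98 on B5 and 34.95, 75.6 and 56.4 there with antimycin A, and 426, 460.4 and 517 on NAA and 122, 95.7 and 86.8 there with antimycin A. It rose by 3.49 ± 0.22 with NAA and fell by 2.05 ± 0.22 with antimycin A, kept 21.7% of its NAA mean and was the named gene with a called rise on B5 with antimycin A, by 0.69 ± 0.22. AT4G33550 read 231, 1107 and 643 on B5 and 406, 720.5 and 284 there with antimycin A, and 1505, 1655 and 2303 on NAA and 163, 248 and 238 there with antimycin A. Its B5 arrays spread from 231 to 1107, and the rise of 1.67 ± 0.52 was 1 of the 3 that the fit did not call. On NAA with antimycin A it was below every array of B5 with antimycin A.

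AT3G24240 encodes a leucine-rich repeat receptor kinase, the type of receptor that binds small peptide signals at the cell surface. It read 54.7, 29.8 and 33.04 on B5 and 19.2, 19.1 and 19.01 there with antimycin A, and 271, 273 and 248 on NAA and 77.6, 96.3 and 81.7 there with antimycin A. The 3 NAA arrays with antimycin A were all above the 6 B5 arrays, and AT3G24240 rose by 2.37 ± 0.14 with NAA and fell by 1.47 ± 0.14 with antimycin A. AT1G34110, of the same receptor type, read 25.2, 36.8 and 22.9 on B5 and 29.01, 24.6 and 18.2 there with antimycin A, and 228, 212 and 164 on NAA and 56.1, 85.2 and 103 there with antimycin A. It rose by 2.3 ± 0.21 with NAA and fell by 1.18 ± 0.21 with antimycin A. Among genes named in the set these receptors kept the largest and the next largest NAA effect under antimycin A, 1.52 ± 0.14 and 1.27 ± 0.21. AT4G28650, the third receptor kinase, averaged 44.6 ± 13.5 (SD) on NAA and 10.8 ± 0.12 there with antimycin A, at the level of B5 with antimycin A.

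SIAMESE (SIM) encodes an inhibitor of cyclin-dependent kinases that stops division as cells enter endoreduplication, known from trichomes. It read 91.1, 92.5 and 77.8 on B5 and 44.2, 82.9 and 42.9 there with antimycin A, and 241, 259 and 142 on NAA and 81.2, 99.8 and 102 there with antimycin A. Without the inhibitor the NAA and B5 arrays did not overlap, and with it they did. SIM rose by 1.12 ± 0.25 with NAA and fell by 1.02 ± 0.25 with antimycin A, close to the limit of the rule. HIS1-3, a linker histone known for its response to drought, read 37.5, 74.3 and 89.6 on B5 and 29.6, 49.9 and 42.1 there with antimycin A, and 171, 199.8 and 189 on NAA and 41.6, 44.5 and 51.1 there with antimycin A. Its NAA arrays were above all others and the other 3 groups overlapped, and it rose by 1.34 ± 0.23 with NAA and fell by 1.72 ± 0.23 with antimycin A. The predicted transcription factors AT5G65320, of the bHLH family, and AT2G28200, with C2H2 zinc fingers, averaged 98.02 ± 17.1 (SD) and 87.5 ± 14.9 on NAA. With antimycin A they averaged 20.6 ± 1.43 and 34.97 ± 5.16, above both B5 groups on every array.

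SAG29, also called SWEET15, is a sucrose transporter of the plasma membrane known from ageing leaves. It read 7.71, 10.7 and 9.9 on B5 and 11.2, 10.6 and 10.8 there with antimycin A, and 187, 124 and 358 on NAA and 42.3, 15.8 and 43.8 there with antimycin A. Its NAA arrays were spread widely, yet all were above the other 9, and SAG29 rose by 3.11 ± 0.34 with NAA and fell by 2.19 ± 0.34 with antimycin A. With antimycin A on NAA it was still above both B5 groups. Of 15 other SWEET genes with a probe set, none was called higher with NAA and 2 were called lower (10.7% and 9.67% of all probe sets). With antimycin A on NAA, 3 were called lower and 1 higher (13.2% and 11.6% of all). Some of them were dim throughout, such as SWEET8 at 3.84 to 4.03 in its group means, and nothing is read from these counts. AT2G41190, an amino acid transporter, averaged 112 ± 15.1 (SD) on NAA and 20.1 ± 3.95 with antimycin A. AT1G79520, of the cation efflux family, read 104, 139 and 106 on B5 and 98.7, 105 and 88.6 there with antimycin A, and 244, 239 and 266 on NAA and 97.8, 78.5 and 103 there with antimycin A and had a rise just past the limit, at 1.01 ± 0.12.

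UGT72E2 attaches glucose to monolignols, the building blocks of lignin. It read 122, 84.6 and 90.2 on B5 and 37.6, 47.8 and 46.04 there with antimycin A, and 332, 208 and 244 on NAA and 79.4, 71.5 and 71.4 there with antimycin A. It rose by 1.26 ± 0.17 with NAA and fell by 1.60 ± 0.17 with antimycin A, and on B5 too it was lower with the inhibitor, by 0.93 ± 0.17. Of its closest relatives, UGT72E1 averaged 105 on B5 and 153 there with antimycin A, against 73.8 on NAA and 134 there with antimycin A, and thus rose with antimycin A on NAA where UGT72E2 fell (change of 0.73, adjusted p = 0.0121). UGT72E3 was dim, at 5.63 to 10.0 in its group means, and was called higher with NAA by 0.20 (adjusted p = 0.0164) and lower with antimycin A on NAA, with a change of -0.26 (adjusted p = 0.00337). UGT84A4, a glucosyltransferase of hydroxycinnamic acids, read 31.5, 36.7 and 31.1 on B5 and 26.3, 12.9 and 22.02 there with antimycin A, and 105, 120.1 and 94.96 on NAA and 37.5, 39.2 and 40.9 there with antimycin A. It rose by 1.32 ± 0.13 with NAA and fell by 1.15 ± 0.13 with antimycin A, with NAA plus antimycin A above both B5 groups. AT3G46720, a further glycosyltransferase, averaged 49.7 ± 2.24 (SD) on NAA and 16.2 ± 2.87 with antimycin A.

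FACT transfers caffeic acid to fatty alcohols and so supplies the waxes of root suberin. It read 48.5, 39.6 and 39.4 on B5 and 40.3, 50.4 and 42.5 there with antimycin A, and 130.04, 122 and 147 on NAA and 54.5, 54.01 and 43.3 there with antimycin A. Apart from the NAA arrays its groups overlapped, and FACT rose by 1.35 ± 0.10 with NAA and fell by 1.16 ± 0.10 with antimycin A. AT1G24430, an acyltransferase of the same BAHD family, read 20.7, 16.8 and 17.9 on B5 and 17, 18.8 and 17.2 there with antimycin A, and 154, 172 and 118 on NAA and 20.1, 20.6 and 27.01 there with antimycin A. It rose by 2.24 ± 0.12 with NAA and fell by 2.08 ± 0.12 with antimycin A and returned to within 0.19 of B5 with antimycin A. These BAHD members had almost no change with antimycin A on B5, at 0.05 ± 0.10 and -0.03 ± 0.12.

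Other enzymes differed in how much of the rise remained. PAP20, a purple acid phosphatase, read 4.92, 7.96 and 5.23 on B5 and 5.73, 5.55 and 5.3 there with antimycin A, and 100.8, 113 and 124 on NAA and 34.4, 26.4 and 37.8 there with antimycin A. It rose by 2.54 ± 0.10 with NAA and fell by 1.40 ± 0.10 with antimycin A, and its NAA arrays with antimycin A stayed above all 6 B5 arrays. ATGSTF13, a phi class glutathione transferase, read 9.94, 10.8 and 6.88 on B5 and 10.9, 6.71 and 10.8 there with antimycin A, and 95.5, 108 and 69.1 on NAA and 22.4, 23.4 and 17.9 there with antimycin A, and also stayed above both B5 groups. It rose by 2.07 ± 0.14 with NAA and fell by 1.51 ± 0.14 with antimycin A. CXE18, a carboxylesterase, read 32.2, 27.3 and 23.7 on B5 and 5.23, 5.87 and 6.75 there with antimycin A, and 109.7, 86.9 and 67.5 on NAA and 31.6, 29.4 and 30.6 there with antimycin A. Its arrays of NAA with antimycin A overlapped those of untreated B5 but were all above those of B5 with antimycin A. CXE18 rose by 1.24 ± 0.13 with NAA and fell by 1.14 ± 0.13 with antimycin A, with the largest fall of a named member on B5 (-0.99 ± 0.13). These falls were close, with a difference of -0.15 ± 0.18 that the fit did not call. Most of the rise thus remained where both groups had the inhibitor, at 1.08 ± 0.13, which the fit called. AT1G26390, of the FAD-binding berberine bridge enzyme family, read 11.4, 11.3 and 12.1 on B5 and 12.7, 12.8 and 12.8 there with antimycin A, and 60.9, 63.03 and 124 on NAA and 12.1, 11.97 and 11.6 there with antimycin A. Its reversal was full, with each array of NAA with antimycin A between 11.6 and 12.1, and it rose by 1.78 ± 0.19 with NAA and fell by 1.76 ± 0.19 with antimycin A.

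**Figure D4:**
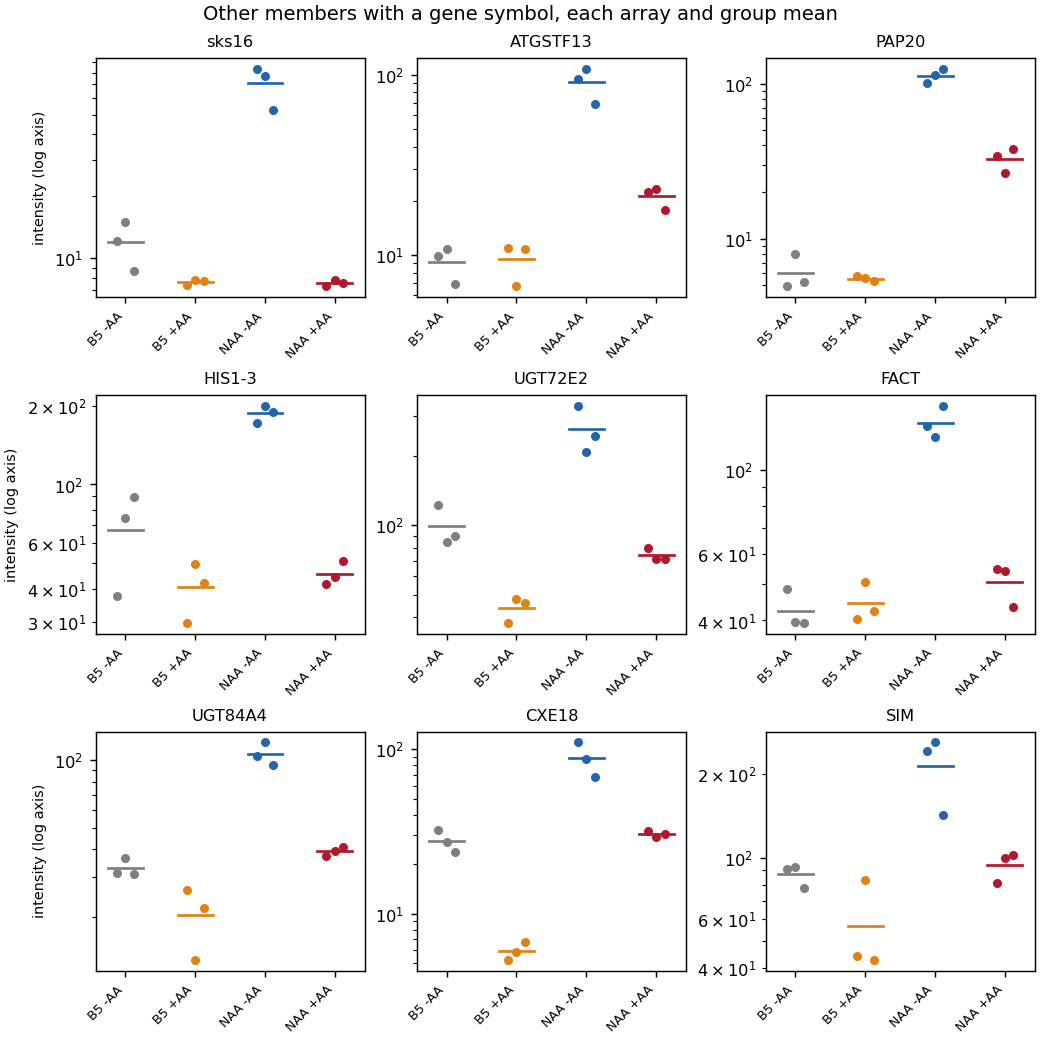
Intensity (log axis, own scale per panel) on each array and the group mean (line) for the 9 members with a gene symbol that are not among the 12 with the largest rise and fall. Each point is 1 array. PAP20, ATGSTF13 and UGT84A4 stay above both B5 groups on NAA with antimycin A, while sks16, HIS1-3, SIM and FACT overlap B5 with antimycin A.

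AT3G61930, a locus with no family given here, had the largest rise of all members. It read 10.9, 6.64 and 5.96 on B5 and 6.81, 8.03 and 8.47 there with antimycin A, and 319, 300.1 and 348 on NAA and 45.4, 29.5 and 25.1 there with antimycin A. It rose by 3.83 ± 0.14 with NAA and fell by 2.80 ± 0.14 with antimycin A, and still stood 1.03 ± 0.14 above B5 with the inhibitor. AT2G41800, a wall protein of the DUF642 family, read 139, 109 and 87.1 on B5 and 59.9, 66.9 and 93.97 there with antimycin A, and 672, 640.2 and 953 on NAA and 173, 196 and 141 there with antimycin A. It rose by 2.59 ± 0.21 with NAA and fell by 2.04 ± 0.21 with antimycin A. AT3G62730 read 4.09, 4.28 and 4.12 on B5 and 4.19, 4.18 and 3.98 there with antimycin A, and 57.5, 48.4 and 57.2 on NAA and 4.38, 4.38 and 7.21 there with antimycin A. It rose by 1.8 ± 0.06 with NAA and fell by 1.72 ± 0.06 with antimycin A, and outside NAA it was among the dimmest readings. AT5G24313 read 11.2, 13.99 and 9.71 on B5 and 9.43, 9.42 and 10.7 there with antimycin A, and 84.03, 115 and 45.97 on NAA and 9.59, 10.3 and 9.2 there with antimycin A. It rose by 1.76 ± 0.22 with NAA and fell by 1.86 ± 0.22 with antimycin A, with the other 3 groups overlapping.

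AT3G13672, listed under the synonym SINA2, read 11.9, 12.5 and 13.6 on B5 and 16.3, 14.7 and 22.2 there with antimycin A, and 109, 124 and 109 on NAA and 50.2, 24.2 and 35.7 there with antimycin A. It was higher on B5 with antimycin A than on untreated B5 on every array, and it rose by 2.18 ± 0.16 with NAA and fell by 1.33 ± 0.16 with antimycin A. AT2G15220, of the plant basic secretory protein family, was lower on NAA with antimycin A than in either B5 group, at 30.5, 39.5 and 33.6 against 59.9, 55.5 and 47.8 on untreated B5 and 120.5, 92.1 and 228 on NAA. Its probe set may read a similar transcript as well. AT3G02480, of the late embryogenesis abundant proteins known from drying seeds, read 34.7, 237 and 66.2 on B5 and 269.6, 354 and 124 there with antimycin A, and 351, 421 and 560.5 on NAA and 111, 307 and 174 there with antimycin A. Every group was spread widely, the groups overlapped except across the changes of the rule, and the fit did not call its fall of 1.19 ± 0.61.

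The remaining 18 locus codes rose by 1.01 to 1.72 and fell by 1.03 to 1.78. They were dimmer on NAA than the described genes, with a median of 70.9 against 135.5, and their range was 29.3 to 285. This is in part by choice, as the genes described include the 4 brightest on NAA and the 12 with the largest rise and fall. The 52 unnamed probe sets had a median rise of 1.54 and a median change of -1.48 with antimycin A. Probe set 247871_at held the largest fall of all members, reading 15.1, 6.75 and 18.5 on B5 and 3.69, 4.78 and 4.44 there with antimycin A, and 375, 336 and 293 on NAA and 5.36, 5.36 and 4.31 there with antimycin A. It rose by 3.59 ± 0.14 with NAA and fell by 4.06 ± 0.14 with antimycin A and kept 1.5% of its NAA mean. Probe set 253505_at read 9.84, 10.4 and 10.2 on B5 and 10.3, 11.3 and 11.5 there with antimycin A, and 191, 193 and 333 on NAA and 9.59, 10.3 and 8.29 there with antimycin A, a rise of 3.24 ± 0.17 that was lost entirely. The brightest member, 247718_at, read 127, 1988 and 902 on B5 and 338, 614 and 377 there with antimycin A, and 4322, 4191 and 6359.5 on NAA and 927, 1329.5 and 1094 there with antimycin A, and the fit did not call its fall of 2.12 ± 0.79.

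On plain B5 the members fell less with antimycin A, which the rule fixed in advance by barring a fall of 1 or more there. Their changes ran from -0.99 to 1.27 with a median of -0.24, against 0.01 over all probe sets. The lower bound is the limit of the rule. The fit called 33 members lower, where 18.7% of all probe sets were called lower, and 5 higher, where 14.3% were. The arrays did not overlap for 60 members that were lower (24% of all probe sets) and 10 that were higher (36.7% of all). The 39 members with an intensity of 32 or more on B5 had a median change of -0.54, against -0.12 over the 11711 probe sets that bright. Of these 39, 19 were called lower and 3 higher. The share called among all probe sets that bright was not computed, and nothing is read from these counts. The 28 members between 16 and 32 had a median of -0.40. The 48 below 16 had a median of -0.03, and they had little signal to lose. The members called higher on B5 with antimycin A were AT4G22610 and the unnamed probe sets 249895_at, 258037_at, 259329_at and 260335_at.

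**Figure D5:**
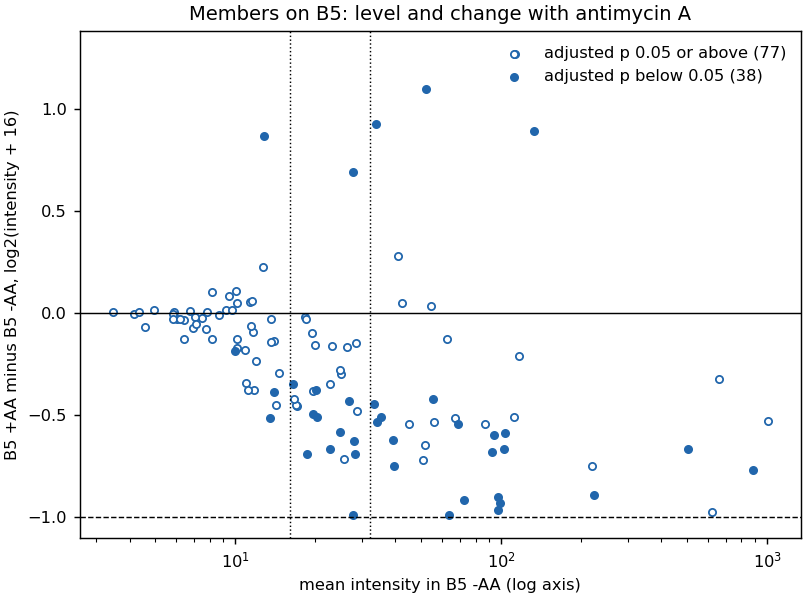
Mean intensity on untreated B5 (log axis) against the change with antimycin A on B5 in log2(intensity + 16) for the 115 members, filled where the fit called the change. Dotted lines mark intensities of 16 and 32, and the dashed line is the limit of -1 in the rule. Members at 32 or more have a median of -0.54, and those below 16 lie near 0 with a median of -0.03.

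Probe set 258037_at was the member called lower on NAA than on B5 when both had antimycin A. It read 54.9, 48.9 and 52.8 on B5 and 92.5, 119 and 197 there with antimycin A, and 117, 137 and 123 on NAA and 46.1, 48.1 and 43.7 there with antimycin A. Antimycin A raised it on B5 to the range seen on NAA, while on NAA it was lowered to below untreated B5, and its NAA effect with antimycin A was -1.24 ± 0.20. Probe set 260335_at read 10.1, 18.9 and 9.55 on B5 and 35.4, 36.9 and 35.8 there with antimycin A, and 146, 180 and 153 on NAA and 39.4, 38.8 and 41.8 there with antimycin A, and both groups with antimycin A met between 35.4 and 41.8.

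The antimycin A effect on NAA minus that on B5 had a median of -1.22 over the members, and ran from -3.54 to -0.15. The fit called this difference lower for 88 of 115, where 4.39% of all probe sets were called lower, and higher for none, where 5.14% were. It is made of changes that the rule used.

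The median SD of log2(intensity + 16) over the 3 NAA arrays was 0.27 for the members and 0.09 for all probe sets, while in the other 3 groups it was 0.09 to 0.13 against 0.07 to 0.09. Replicate 3 of NAA was the lowest of its group for 64 members, and replicate 2 the highest for 54. The ratio of 3′ to 5′ signal of the GAPDH control, a gauge of RNA integrity, was 17.3, 48.9 and 13.5 on these NAA arrays. In B5 with antimycin A replicate 2 was the highest for 57 members and had a ratio of 26.5 against 10.1 and 12.9. On NAA with antimycin A it was again replicate 2 that was the highest, for 44 members, with a ratio of 28.7 against 11.9 and 17.2. Untreated B5 differed, as replicate 1 was the highest there, for 53 members, and had the lowest ratio, 9.24 against 13.3 and 13.9. The same counts over all probe sets were not made. The part of RNA quality in the members' levels was not tested.

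No member stands in any of the 22 gene lists laid down for auxin, wall, root and stress functions, most of whose genes have no name in the annotation used. Only 102 genes of the lists were measured by name. Of the pectin list these were 5 of 97, and of the 85 wall glycoproteins and 47 lipid transfer genes none, so members of such families could not be matched. The definition of the set accounts for the absence of EXPB2 of the expansin list, which met every condition and was left out. EXPA genes, LBD29, PUCHI and GH3.17 were barred by name too, but those measured in the lists did not meet the conditions. The list of root hair genes had 4 genes measured of 50, none of them a member. All 4 were called higher with NAA (10.7% of all probe sets) and lower with antimycin A on NAA (13.2% of all), with medians of 1.08 and -1.62. EXPA7, an expansin that loosens the wall of growing root hairs, read 38.2, 17.6 and 30.04 on B5 and 4.68, 4.96 and 5.34 there with antimycin A, and 169.9, 138 and 104 on NAA and 8.38, 6.09 and 10.1 there with antimycin A. Both treatments separated its arrays completely, and it rose by 1.78 ± 0.19 with NAA (adjusted p = 0.000212) and changed by -2.64 ± 0.19 with antimycin A on NAA (adjusted p = 1.36e-05). EXPA18, its companion in root hairs, read 163, 107 and 117 on B5 and 16.01, 16.3 and 15.4 there with antimycin A, and 478, 329.7 and 422 on NAA and 55.7, 38.95 and 35.9 there with antimycin A. It rose by 1.56 ± 0.18 (adjusted p = 0.000341) and changed by -2.84 ± 0.18 (adjusted p = 6.67e-06). Both also fell by more than 1 with antimycin A on B5, a fall that the rule bars for members, EXPA7 by 1.06 ± 0.19 and EXPA18 by 2.16 ± 0.18. XTH26, a xyloglucan endotransglucosylase of root hairs, averaged 15.6 on NAA and 4.75 to 4.89 in the other groups. SCN1, a regulator of where hairs emerge, was bright throughout and moved by 0.36 ± 0.05 and -0.47 ± 0.05.

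EXPA7 and EXPA18 were also the only markers of root hair cells measured, 2 of 13. Their summed intensity was 124 to 202 on B5 and 20.7 to 21.2 there with antimycin A, against 467 to 648 on NAA and 45.04 to 64.1 there with antimycin A. In whole seedlings fewer cells of a type and less RNA per cell cannot be told apart. The root marker PYK10 read 6254 to 8001 on B5 and 2016 to 2674 there with antimycin A, against 5583 to 6511 on NAA and 2836 to 3872 there with antimycin A. The 5 photosynthesis markers measured of 16 summed to 43325 to 45796 on B5 and 24122 to 29319 there with antimycin A, against 26870 to 30984 on NAA and 13951 to 20283 there with antimycin A. No probe set tested read 0, the lowest value being 2.11, and EXPA7 was dim on B5 with antimycin A, at 4.68 to 5.34. Of the 3 stomatal lineage markers, SPCH and MUTE were dim, between 5.14 and 6.16 on every array, while FMA averaged 29.6 on B5 and 18.1 there with antimycin A, against 17.7 on NAA and 14.9 there with antimycin A. The phloem marker CLE41 averaged 398 on B5 and 300.1 there with antimycin A, against 255 on NAA and 312 there with antimycin A. Markers of root cap, endodermis and xylem were not measured by name. The part of any of these cell types in the members' changes was not tested.

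Genes of the expansin and xyloglucan family list had 28 genes measured. With NAA 10 were called higher and 5 lower (10.7% and 9.67% of all probe sets), and with antimycin A on NAA 6 were called higher and 10 lower (11.6% and 13.2% of all), with medians of -0.01 and 0.00. GH9C1, a cellulase-like enzyme of the wall in the list of cellulose genes, read 49.2, 25.3 and 49.2 on B5 and 6.12, 9.11 and 6.5 there with antimycin A, and 226, 276 and 161 on NAA and 24.8, 17.6 and 17.9 there with antimycin A. It rose by 2.05 ± 0.22 with NAA (adjusted p = 0.000202), changed by -2.69 ± 0.22 with antimycin A (adjusted p = 2.51e-05), and fell by 1.27 ± 0.22 on B5 as well, past the limit of the rule. Of 9 genes measured in that list, 2 were called higher and 1 lower with NAA, and 2 were called higher and 3 lower with antimycin A on NAA.

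Auxin genes outside the set included some that antimycin A raised further. GH3.3, an enzyme that joins auxin to amino acids, averaged 16.4 on B5 and 1280 there with antimycin A, and 3003 on NAA and 6814 there with antimycin A. It rose by 6.57 ± 0.20 with NAA (adjusted p = 3.66e-07) and rose further by 1.17 ± 0.20 with antimycin A on NAA (adjusted p = 0.00224). WES1, the related GH3.5, rose by 4.75 ± 0.15 with NAA (adjusted p = 4.78e-07), with a change of 0.45 ± 0.15 on antimycin A that missed the threshold (adjusted p = 0.0605). The Aux/IAA repressor gene IAA29 averaged 5.10 on B5, 29.6 on NAA and 84.7 there with antimycin A, rising by 1.1 ± 0.10 (adjusted p = 9.4e-05) and by 1.15 ± 0.10 (adjusted p = 4.24e-05). LBD16, a transcription factor that starts lateral roots, averaged 11.2, 37.5 and 94.5 in the same groups, rising by 0.97 ± 0.11 (adjusted p = 0.000297) and 1.05 ± 0.11 (adjusted p = 0.000116). Other genes of these lists fell with antimycin A on NAA after a rise with NAA. The lateral root regulators LBD29 and PUCHI changed by -1.10 ± 0.10 (adjusted p = 6.57e-05) and -0.64 ± 0.05 (adjusted p = 3.41e-05), and GH3.17, a further enzyme of auxin conjugation, by -1.49 ± 0.19 (adjusted p = 0.000441). Of 4 lateral root genes measured, 3 were called higher with NAA, and 1 was called higher and 2 lower with antimycin A on NAA. Among the 6 genes measured for auxin conjugation and breakdown, 4 were called higher with NAA, and 1 was called higher and 1 lower with antimycin A on NAA. Among 7 Aux/IAA genes 2 were called higher with NAA and 2 higher with antimycin A on NAA. Of all probe sets, 10.7% were called higher with NAA, and 11.6% higher and 13.2% lower with antimycin A on NAA.

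In the list of receptor kinases and peptides, 8 genes were measured, of which 1 was called higher and 1 lower with NAA, and 2 higher and 1 lower with antimycin A on NAA. CLE44, a peptide gene of the vascular cambium, rose by 1.12 ± 0.10 with NAA (adjusted p = 8.57e-05) and by a further 0.61 ± 0.10 with antimycin A (adjusted p = 0.00179). GSO1, a receptor kinase of the endodermal barrier and the gene measured in the list for endodermis and suberin, rose by 1.25 ± 0.21 (adjusted p = 0.00274), and its change of -0.55 ± 0.21 with antimycin A missed the threshold (adjusted p = 0.094). Of 7 class III peroxidases, enzymes that cross-link the wall, 1 was called higher and 1 lower with NAA (10.7% and 9.67% of all probe sets), and 3 were called higher and 2 lower with antimycin A on NAA (11.6% and 13.2% of all).

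The 61 genes lie on all 5 chromosomes, 14, 11, 15, 9 and 12 of them from chromosome 1 to 5. In percent this is 23.0, 18.0, 24.6, 14.8 and 19.7, against 26.3, 15.3, 20.6, 14.4 and 23.4 of the named genes counted on these chromosomes. That count leaves out part of the 13286 named genes. Only AT3G62730 and ATGSTF13 were within 5 protein-coding genes of each other, 3 genes apart in the RefSeq order of assembly TAIR10.1. Both were dim on B5, at 4.16 and 9.21, and both rose on NAA, to 54.4 and 90.9.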

How the data were processed

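The deposited table holds linear intensities for 22810 rows on 12 arrays, each column carrying the title of its sample. MAS5, RMA and Partek appear in the submitters' processing notes without a role, and no header or label says which of them made the deposited intensity values or how arrays were scaled. The 64 rows of control probe sets were not tested. The annotation table of the array names 1 gene for 13513 probe sets, several for 503 and none for 8730, and symbols were updated through RefSeq (TAIR10.1), which served for names and gene order alone.

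Values were taken as log2(intensity + 16), where a fold change understates that of dim transcripts. limma 3.58.1 in R 4.3.3 gave each of the 4 groups a mean over all 12 arrays, with 8 residual degrees of freedom. Its moderated tests of 5 contrasts were two-sided, with Benjamini-Hochberg adjustment over 22746 probe sets and calls at an adjusted p below 0.05. The fit was tested on simulated data. A gene of a list was read through its brightest probe set.

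The members, the 22 gene lists and the markers were chosen with earlier results of these data known. Members were named by a rule: the 12 in which the smaller of rise and fall was largest, the 4 lowest and 4 highest in the NAA effect with antimycin A and in the antimycin A effect on B5, the 4 brightest on NAA, and every member with a symbol. Of genes outside the set, up to 3 per list by adjusted p for the NAA effect could be named, and NDB2 was the gauge of antimycin A, the other gauge planned being unmatched by symbol. Other genes printed, such as relatives of members, members placed in protein families, unnamed probe sets and SCN1, were chosen after their values were seen. A pair of list genes was entered by locus code after the values were seen, which added AT5G51440 to the genes measured. The lists of SAUR genes, wall glycoproteins and lipid transfer proteins had no gene measured by name. As alternatives, the normalization, the pseudocount (1 and 64), the variance model, array weights and the replicate block were varied, dim probe sets were removed, pairs of groups were fitted apart, and each array was left out.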

Additional observations from a re-analysis of the deposited data

Results flagged for a closer look

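The genes of the lists described here, none of them a member, had an antimycin A effect that differed between NAA and B5 by the fit's own contrast, the effect on NAA minus that on B5 in log2(intensity + 16), at an adjusted p below 0.05 in limma with Benjamini-Hochberg adjustment. Over all genes measured in the lists the fit called the difference lower for 13 (4.39% of all probe sets) and higher for 13 (5.14% of all), and the genes given here are those that the naming rule took. It was below 0 for 10 of these. Among auxin genes it was -4.16 for GH3.3, which antimycin A raised on both media and by more on B5 (5.33 against 1.17), and -1.14 for WES1. It was -1.13 for LBD29 and -0.64 for PUCHI, lateral root regulators that rose with NAA by 3.65 and 1.00. Among wall genes it was -1.58 for EXPA7, -1.42 for GH9C1, -0.61 for XTH26 and -2.02 for ATPMEPCRB, a pectin methylesterase gene with changes of 3.12 on B5 and 1.11 on NAA. It was -1.41 for BCAT4, an aminotransferase of glucosinolate synthesis that fell on both media. It was -1.35 for AT5G51440, a mitochondrial small heat shock gene that antimycin A raised by 5.31 on B5 and 3.97 on NAA.

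The difference was above 0 for 6 of the genes so named. It was 1.46 for IAA30 and 1.13 for IAA29, Aux/IAA repressor genes, and 1.25 for LBD16. It was 1.65 for UGT78D1, a flavonol glycosyltransferase with changes of -2.36 on B5 and -0.71 on NAA. It was 0.70 for RR16, a cytokinin response regulator, and 0.66 for CLE41, a peptide gene of the phloem. The call for CLE41 was lost without any 1 of the B5 arrays, replicate 3 of B5 with antimycin A, replicates 1 and 2 of NAA or replicate 1 of NAA with antimycin A (adjusted p up to 0.0654), that for GH9C1 with a pseudocount of 1 (adjusted p = 0.144) and without replicate 1 of NAA or replicates 2 or 3 of NAA with antimycin A (adjusted p up to 0.0513), that for BCAT4 without replicate 2 of NAA with antimycin A (adjusted p = 0.0521), and that for WES1 with a pseudocount of 64 (adjusted p = 0.0784).

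In the control probe sets, which no comparison uses, the signal for 25S ribosomal RNA averaged 12030 on NAA with antimycin A, above 5385 on untreated B5.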

How the results depend on the processing

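The membership depends on the constant added before the logarithm. A pseudocount of 1 gave 195 members, 86 of them shared with the 115, and one of 64 gave 64, with 38 shared. Requiring a mean intensity above 32 left 75. The medians that follow are over the 115 members as reported, not over the sets chosen anew. The intensity limit and the choice of the brightest probe set keep only part of these 115. The median rise was 2.13, 0.90 and 1.72 in these 3 settings. The median change with antimycin A on NAA was -2.06 and -0.87 with the 2 pseudocounts. The median NAA effect with antimycin A, 0.23 as reported, was 0.53, 0.086 and 0.52, was 0.11 after median centring and 0.34 with the brightest probe set of each gene. The median change on B5 was -0.46, -0.11 and -0.45. Leaving out 1 array in turn gave 106 to 149 members, the most without NAA replicate 3, with 79 of the 115 kept throughout, and 21 of the 115 were members under all 18 settings compared. With 1 array left out the medians ranged over 1.47 to 1.59 (NAA), -1.54 to -1.41 (antimycin A on NAA), 0.21 to 0.27 (NAA with antimycin A) and -0.26 to -0.20 (antimycin A on B5).

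Median centring raised the calls of the NAA effect from 4637 to 12002 without antimycin A and from 4994 to 13365 with it, of which 17.8% were higher in both cases, against 52.6% and 55.6% as reported. It shifted all probe sets by -0.09 and -0.12. Deviations from group means correlated at -0.10 to 0.35 (median 0.07) between same-numbered arrays and at -0.33 to 0.28 (median -0.04) between others, and at 0.26 to 0.35 among replicates 2 of the 3 groups other than untreated B5. Since not every pair was above 0.1, the numbers were not taken to pair the arrays. The replicate block moved no count of calls by over 1.5 times (4627, 5683, 5012, 7537 and 2159 calls in the 5 contrasts). Leaving out 1 array gave 3400 to 4671 calls for NAA without antimycin A, 3934 to 5034 with it, 4483 to 5703 for antimycin A on NAA, 6421 to 7597 on B5 and 1578 to 2325 for the difference. No median of the members and no called change of a named gene turned its sign in the settings run, but with quantile normalization 47.5% of the calls of the NAA effect were higher without antimycin A and 47.3% with it, so that lower calls were then the more frequent. The promoter motif comparison was not run. Dim members on B5, 48 below 16, limit what can be said of a further fall there.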
